A study of Mus musculus with 10 samples.

Results

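6 X-linked genes that encode parts of the cohesin ring, the Mediator complex and the general transcription machinery were followed while a mouse X chromosome was being silenced. The members were every gene named Smc1a, Stag2, Med12, Med14, Taf1 or Ogt in the deposited tables, which gave 6 genes of 24386, and of 1028 on the X chromosome. The method was transient transcriptome sequencing (TT-seq), in which RNA made during a short pulse of 4-thiouridine (4sU) is purified and sequenced. The cells were TX1072, a female hybrid mouse embryonic stem cell (ESC) line with a C57BL/6 (B6) and a castaneus (Cast) copy of every chromosome, labelled WT, in which doxycycline (DOX) switches on the endogenous Xist of the B6 X chromosome. All groups came from this single line and carried the inducible allele. They were plated for 24 h and then kept for 0, 4, 8, 12 or 24 h in DOX at 1 µg/ml, with a 5 min pulse of 4sU at 0.5 mM and 2 replicates per time. The study calls its duplicates biological, while the labels only number them and do not name separate cultures, so p-values measure the spread between these samples.

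Cohesin is a ring that holds sister chromatids together and extrudes chromatin loops. SMC1A is part of the ring itself and STAG2 is an accessory subunit that binds it. Mediator passes signals from transcription factors to RNA polymerase II. MED14 is its backbone, and MED12 belongs to the kinase module and activates the kinase CDK8. TAF1 is the largest subunit of TFIID, the factor that contains TBP and recognises core promoters. OGT attaches the sugar N-acetylglucosamine to serines and threonines of nuclear and cytoplasmic proteins, RNA polymerase II among them. In female mammals Xist RNA coats the X chromosome from which it is made and most genes on it fall silent.

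By position the 6 genes fell into a cluster near Xist and outlying genes. Med12 (mm10 chrX:101274091-101298934), Taf1 (chrX:101532735-101601789) and Ogt (chrX:101640051-101684351) lay within 0.410 Mb of one another, at 2.16, 1.86 and 1.78 Mb from Xist. Smc1a (chrX:152016428-152061973) lay 48.5 Mb and Stag2 (chrX:42149412-42277186) 61.2 Mb from Xist. All 5 are protein-coding genes on the plus strand, and no other gene of the tables overlapped them on the same strand or the opposite one. Med14 (chrX:12675371-12761973, minus strand) lay 90.7 Mb away. Counts covered the whole gene, introns included, so each value below refers to spans of 24.8 kb for Med12, 44.3 kb for Ogt, 45.5 kb for Smc1a, 69.1 kb for Taf1 and 128 kb for Stag2.

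RefSeq promoters were matched for 5 of the 6 members (Smc1a, Med12, Med14, Taf1 and Ogt). The 250 bases upstream of the start are shown for Med12, Taf1 and Ogt, the neighbours near Xist that differed in how far their B6 copy fell, and for Smc1a, the distant gene with the deepest allelic coverage among those that fell furthest. They were read 5′ to 3′ on the plus strand of GRCm38.p6 at chrX:152016178-152016427 (Smc1a), chrX:101273841-101274090 (Med12), chrX:101532485-101532734 (Taf1) and chrX:101639801-101640050 (Ogt). Capitals mark matches on either strand to 3 of 6 motifs searched, namely the GC box GGGCGG, the CCAAT box CCAAT and the ETS core CCGGAA.
Smc1a: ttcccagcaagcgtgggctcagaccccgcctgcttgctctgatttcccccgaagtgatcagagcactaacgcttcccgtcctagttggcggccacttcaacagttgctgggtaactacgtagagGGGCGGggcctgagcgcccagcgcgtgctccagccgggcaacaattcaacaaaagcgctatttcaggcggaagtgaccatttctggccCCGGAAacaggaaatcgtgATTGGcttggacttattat
Med12: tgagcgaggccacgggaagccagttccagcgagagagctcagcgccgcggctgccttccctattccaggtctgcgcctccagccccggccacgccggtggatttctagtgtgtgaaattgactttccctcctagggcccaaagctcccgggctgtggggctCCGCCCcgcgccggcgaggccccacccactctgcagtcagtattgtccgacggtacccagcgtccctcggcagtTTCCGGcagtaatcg
Taf1: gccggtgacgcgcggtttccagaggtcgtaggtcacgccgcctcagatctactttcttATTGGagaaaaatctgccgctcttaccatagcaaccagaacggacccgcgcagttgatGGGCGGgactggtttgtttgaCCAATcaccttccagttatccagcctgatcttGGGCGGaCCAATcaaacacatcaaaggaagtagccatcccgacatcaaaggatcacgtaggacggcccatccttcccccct
Ogt: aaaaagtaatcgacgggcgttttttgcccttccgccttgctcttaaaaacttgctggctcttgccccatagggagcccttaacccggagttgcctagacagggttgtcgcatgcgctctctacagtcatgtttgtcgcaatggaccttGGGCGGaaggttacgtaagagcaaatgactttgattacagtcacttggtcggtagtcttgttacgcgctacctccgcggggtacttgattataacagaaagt

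The GC box was present in all 5 matched promoters, against 32.7% of 32851 mouse promoters of the same length. Taf1 held 3 CCAAT boxes, at -192, -113 and -74 from the start, and Smc1a held 1, while CCAAT occurred in 33.8% of all promoters. The ETS core was found in Smc1a, Med12 and Med14 and in 12% of all promoters, but not in these windows of Taf1 and Ogt. No match was found in the 5 windows to the TATA box TATAAA, the E-box CACGTG or the YY1 core GCCATNTT, which were present in 12.4%, 6.02% and 3.91% of all promoters. These are letter matches, not binding sites, and absence from a window carries no statement about a factor. The number of CpG dinucleotides was 15 for Ogt, 16 for Smc1a and for Taf1, 22 for Med12 and 28 for Med14, against a median of 6.

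Sequencing depth was similar across the 10 samples, with 18809046 to 22274929 counted read pairs each, of which 49.2% to 52.8% were assigned to an allele. Xist, the induced gene, rose from 1.41 to 1.53 CPM (counts scaled by library size) at 0 h to 329 to 664 CPM later. ESC markers summed to 2593 to 2852 CPM in every sample, while the sum of 10 differentiation markers was 12.3 to 20.1 CPM and that of 7 fibroblast markers 3.74 to 7.12 CPM. Sox2, a defining ESC gene, was listed at 0 throughout and lies inside a longer gene on the same strand, and Sox1 and the fibroblast gene Lum were also at 0.

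Med14 had no counts, neither total nor allelic, in any of the 10 samples, and nothing can be said of its transcription. Its span lies inside that of Btbd35f15, which the tables give as a single interval of 29.8 Mb (chrX:3750926-33577346, minus strand). Reads that fall in several genes on the same strand were not counted. All 82 minus-strand genes inside the interval were at 0 in every sample, against 31 of 101 plus-strand genes there and 78 of 421 minus-strand genes on the rest of the X. All results below therefore rest on 5 members.

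Before DOX the 5 genes differed in how strongly they were transcribed. On total counts per length, in CPM per kb at 0 h, Ogt was highest with 10.4 ± 0.229 (SD, n = 2), followed by Taf1 with 5.82 ± 0.340. Smc1a had 4.50 ± 0.446, Stag2 2.76 ± 0.161 and Med12, the kinase-module subunit, 1.21 ± 0.160. No neighbours in this order overlapped between replicates.

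The study's measure of allelic balance, the d-score, is the share of B6 in all allelic reads of a gene. At 0 h it was near balance for Ogt (0.501 ± 0.00104, SD, n = 2), Smc1a (0.497 ± 0.0208), Stag2 (0.503 ± 0.0472) and Med12 (0.534 ± 0.0569). Taf1 was tilted towards Cast from the outset, with 0.401 ± 0.0203. Only 32 of 337 X-linked genes started lower, in a set limited to genes with a mean 0 h d-score from 0.3 to 0.7. The median of those 337 genes was 0.498 at 0 h and fell to 0.462, 0.375, 0.323 and 0.285 at 4, 8, 12 and 24 h. The allelic reads per sample were 2584 to 3433 for Ogt, 2244 to 3037 for Taf1, 1059 to 2073 for Smc1a, 296 to 477 for Stag2 and 87 to 183 for Med12. Each d-score averages over all cells, so a part of the cells with a silent B6 copy and a partial reduction in every cell cannot be told apart.

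**Figure D1:**
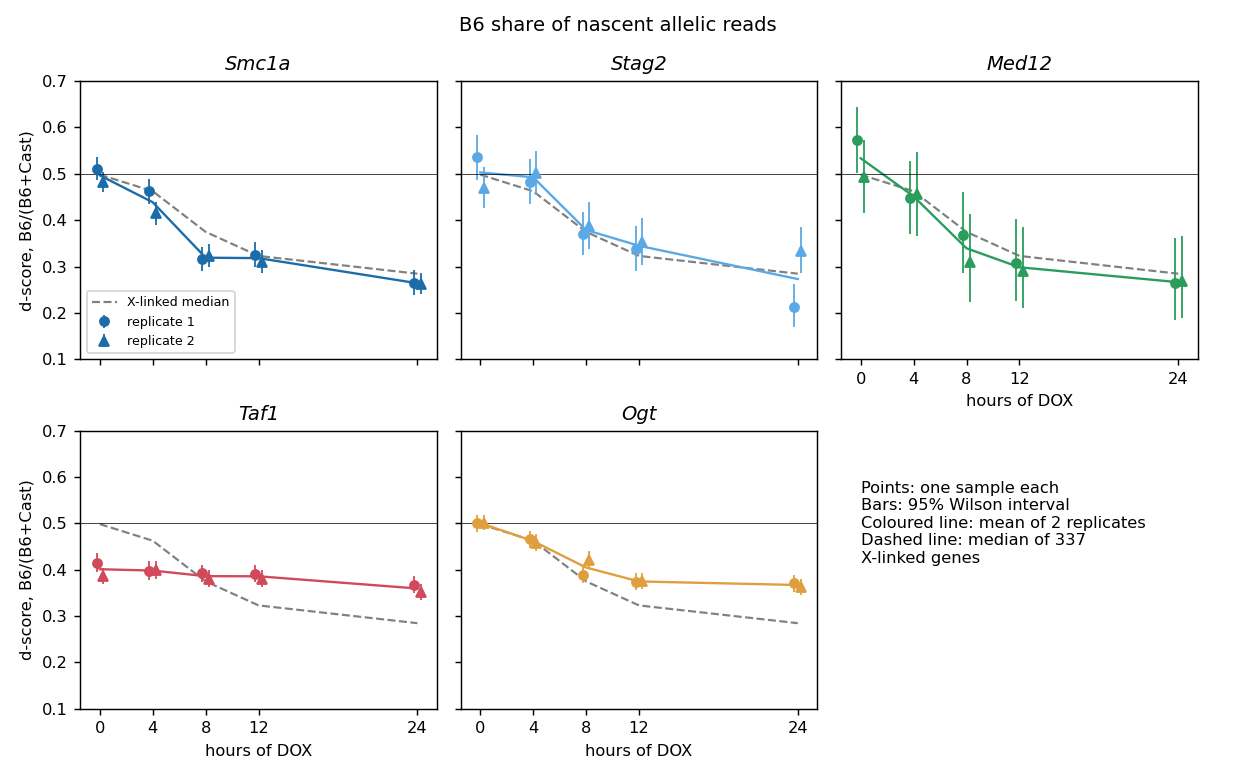
d-score (B6 share of allelic reads) of 5 members against hours of DOX. Each point is 1 sample with its 95% Wilson interval, the coloured line is the mean of 2 replicates and the dashed line the median of 337 X-linked genes. Smc1a, Stag2 and Med12 follow or undercut the median, while Taf1 and Ogt stay above it from 8 h on.

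For Smc1a the B6 share fell early. Its d-scores in replicates 1 and 2 were 0.511 and 0.482 before DOX, 0.462 and 0.415 after 4 h, 0.315 and 0.323 after 8 h, 0.326 and 0.311 after 12 h, and 0.265 and 0.263 after 24 h. Every sample after 0 h lay below both 0 h samples, and the 8 h and 12 h values interleaved. On the log2 scale of the B6 to Cast ratio, the change from 0 h was -0.34 (SE 0.0845) after 4 h, -1.06 (SE 0.0878) after 8 h and -1.45 (SE 0.0911) after 24 h, with adjusted p of 0.0359, 4.22e-20 and 3.99e-29 in edgeR's quasi-likelihood test. The 4 h call was lost with DESeq2 (adjusted p = 1), without replicate 1 of 0 h (0.913) and without replicate 2 of 4 h (0.984).

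Stag2, the other cohesin gene, was first called lower at 8 h. The difference between Stag2 and Smc1a at 4 h was not tested. The d-scores were 0.536 and 0.470 before DOX, 0.483 and 0.502 after 4 h, 0.371 and 0.387 after 8 h, 0.337 and 0.352 after 12 h, and 0.213 and 0.333 after 24 h. The 4 h samples lay between the 0 h samples, and all later ones lay below them. At 24 h the replicates were further apart than counting error, with Wilson intervals of 0.170 to 0.263 and 0.285 to 0.385, so the 24 h mean of 0.273 ± 0.0852 is the least certain of the set. Relative to 0 h the log2 ratio changed by -0.05 (SE 0.163) after 4 h, -0.72 (SE 0.167) after 8 h and -1.39 (SE 0.180) after 24 h (edgeR adjusted p = 0.994, 0.00232 and 2.59e-10). The 8 h call was lost with DESeq2 (adjusted p = 0.55) and without replicate 1 of 0 h (0.334) or of 8 h (0.133), and the 12 h call with DESeq2 (0.0543).

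Med12 had the lowest mean d-score of the 5 at 12 h, on the fewest reads. It went from 0.574 and 0.493 before DOX through 0.447 and 0.455 after 4 h, 0.368 and 0.310 after 8 h and 0.307 and 0.290 after 12 h to 0.264 and 0.269 after 24 h. No sample from 4 h on reached either 0 h value. In the ratio fit the log2 change was -0.50 (SE 0.256) after 4 h, -1.15 (SE 0.279) after 8 h, -1.44 (SE 0.282) after 12 h and -1.67 (SE 0.293) after 24 h, and edgeR adjusted p was 0.985, 0.00502, 8.03e-05 and 5.43e-06. At 8 h the call was lost with DESeq2 (adjusted p = 0.416), without replicate 1 of 0 h (0.378) and without replicate 2 of 8 h (0.215), and at 12 h with DESeq2 (0.0526).

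Ogt lost B6 share in a shallower course. Its d-scores were 0.500 and 0.501 before DOX, 0.465 and 0.458 after 4 h, 0.388 and 0.421 after 8 h, 0.374 and 0.375 after 12 h, and 0.370 and 0.363 after 24 h. The times were separate up to 12 h, and the 24 h samples lay just below those at 12 h. The log2 ratio stood at -0.23 (SE 0.0619) after 4 h, -0.56 (SE 0.0615) after 8 h, -0.74 (SE 0.0616) after 12 h and -0.79 (SE 0.0625) after 24 h. The edgeR adjusted p was 0.0956 at 4 h and 2.77e-13, 3.28e-20 and 8.15e-22 at the later times.

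Taf1, the TFIID gene, moved least. Its d-scores were 0.415 and 0.387 before DOX, 0.398 and 0.399 after 4 h, 0.392 and 0.380 after 8 h, 0.391 and 0.381 after 12 h, and 0.368 and 0.351 after 24 h. Only the 24 h samples lay wholly below both 0 h samples, and those at 4, 8 and 12 h overlapped with them. The log2 ratio changed by -0.01 (SE 0.0672) after 4 h, -0.08 (SE 0.0663) after 8 h, -0.08 (SE 0.0656) after 12 h and -0.25 (SE 0.0657) after 24 h (edgeR adjusted p = 0.995, 0.992, 0.902 and 0.0107). The 24 h call was lost with DESeq2 (adjusted p = 0.666), without replicate 1 of 0 h (0.555) and without replicate 2 of 24 h (0.381), while the direction stayed the same.

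Counted together, the B6 to Cast ratio was lower for 1 of the 5 tested members at 4 h (Smc1a), 4 after 8 h, 4 after 12 h and 5 after 24 h, and higher for none. Among the 362 X-linked genes tested, 11.3%, 52.8%, 65.5% and 75.1% were lower at these times, and among all 11906 genes 0.344%, 1.62%, 2.04% and 2.4%. Higher ratios were called for 0.0168%, 0.042%, 0.109% and 0.235% of all genes. The members' median log2 change was -0.23, -0.72, -0.93 and -1.39, beside X-linked medians of -0.20, -0.69, -1.01 and -1.27. As a list they thus sat close to the X-linked background. Within it they were spread, since at 24 h 11 of the 362 X-linked genes had a higher log2 change than Taf1, 73 than Ogt, 207 than Stag2, 214 than Smc1a and 245 than Med12. Between 12 and 24 h neither edgeR nor DESeq2 called a member in the ratio. In edgeR 3 had an unadjusted p under 0.05 (Smc1a, Stag2 and Taf1), and in DESeq2 Smc1a alone did (0.0107). In the edgeR fit 6.91% of X-linked genes were lower between these times.

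**Figure D2:**
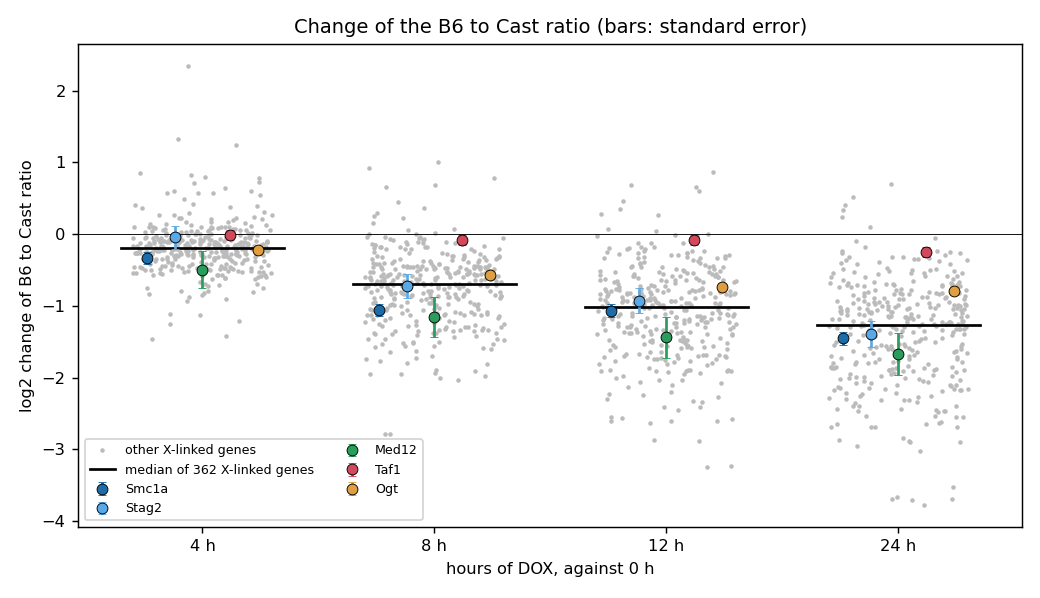
Change in the B6 to Cast ratio, as log2, at 4, 8, 12 and 24 h of DOX against 0 h. Grey points are other X-linked genes, black lines the median of 362 X-linked genes, and coloured points the 5 members with their standard error. At 24 h Taf1 is at -0.25 and Ogt at -0.79, above the median of -1.27, while Stag2, Smc1a and Med12 lie at -1.39 to -1.67. The Stag2 value at 24 h pools replicates that lay apart, with d-scores of 0.213 and 0.333.

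The 5 members were then compared with each other, as differences between their log2 ratio changes with 95% intervals that treat the estimates as independent and are not adjusted for the number of pairs. At 24 h the interval excluded 0 in 7 of 10 pairs. Taf1 fell by less than Ogt (difference 0.54, interval 0.36 to 0.72), Stag2 (1.14, 0.77 to 1.52), Smc1a (1.2, 0.98 to 1.42) and Med12 (1.42, 0.83 to 2.01). Ogt in turn fell by less than Stag2 (0.60, 0.23 to 0.97), Smc1a (0.66, 0.44 to 0.88) and Med12 (0.88, 0.29 to 1.47). The difference between Ogt and Stag2 came from replicate 1, where Stag2 went from 0.536 to 0.213 and Ogt from 0.500 to 0.370. In replicate 2 they fell alike, from 0.470 to 0.333 for Stag2 and from 0.501 to 0.363 for Ogt. The interval does not show this spread between the Stag2 replicates. The cohesin genes Stag2 and Smc1a could not be separated at 24 h (0.06, -0.33 to 0.46), and neither could be separated from Med12 (0.28, -0.39 to 0.95 for Stag2 and 0.22, -0.38 to 0.82 for Smc1a). At 8 h 6 of 10 intervals excluded 0, and that between Ogt and Stag2 did not (0.16, -0.19 to 0.50).

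The time course was also summarised by the study's inactivation criterion, IC35. This is the time at which a sigmoidal curve through the d-score, scaled to 0.5 at 0 h, reaches 0.35. Med12 reached it at 6.50 h (5.84 and 6.67 h for each replicate alone), Smc1a at 7.24 h (6.70 and 7.74 h) and Stag2 at 10.4 h. For Stag2, replicate 1 alone gave 8.75 h and replicate 2 alone did not reach 0.35 within 24 h. Ogt and Taf1 did not reach it either, since their scaled d-scores at 24 h were 0.366 ± 0.00570 and 0.448 ± 0.00778 (SD, n = 2). Of 328 X-linked genes fitted, 248 reached 0.35, at a median of 8.31 h, and 67 did so before Med12 and 83 before Smc1a. Only 7 of the 328 had a higher scaled d-score at 24 h than Taf1, and 63 a higher one than Ogt.

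The order of the members did not follow their distance from Xist. Taf1 and Ogt are separated by 38.3 kb and Med12 lies next in the same cluster, yet Med12 ended with a scaled d-score of 0.251. Of 37 fitted genes within 3 Mb of Xist, a window chosen with these values known, Taf1 had the highest scaled d-score at 24 h, Ogt ranked 7 and Med12 22, against a median of 0.277. The genes on the outer sides of Taf1 and Ogt that kept 50 or more allelic reads throughout did not share Taf1's course. Itgb1bp2, 79.2 kb to the left of Taf1, went from 0.458 ± 0.00117 at 0 h to 0.262 ± 0.0301 at 24 h (SD, n = 2). Nhsl2, 165 kb to the right of Ogt, went from 0.547 ± 0.00523 to 0.0951 ± 0.0117, the lowest scaled d-score in the window. Other genes of the window ended close to Taf1's 0.448. Their scaled d-scores at 24 h were 0.445 for Pin4, 0.412 for Nap1l2, 0.402 for Pbdc1 and 0.401 for 5530601H04Rik.

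Around Med12, Snx12 on the left ended at 0.290 ± 0.0183 and Zmym3 on the right at 0.244 ± 0.0161 (SD, n = 2), beside 0.266 ± 0.00359 for Med12. The neighbours of Smc1a were Hsd17b10, a mitochondrial dehydrogenase gene, at 0.247 ± 0.0508 and Iqsec2 at 0.257 ± 0.0404, beside 0.264 ± 0.00190. The neighbours of Stag2 were Xiap, an inhibitor of caspases, at 0.301 ± 0.0362 and Ocrl, a lipid phosphatase gene, at 0.298 ± 0.0327. Ocrl is the next gene to the right with enough allelic reads but lies 5635 kb away, while Xiap lies 39.75 kb away. For Smc1a the distance in 24 h d-score to each neighbour was smaller than the larger SD of the pair. Hsd17b10 had started lower, at 0.396 ± 0.0540. Scaled to the start, the 24 h d-scores were 0.312 for Hsd17b10, 0.253 for Iqsec2 and 0.266 for Smc1a.

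The X-linked genes whose mean d-score changes over the 4 later times were most like those of a member were named by Euclidean distance among the 264 that kept 50 or more allelic reads throughout. For Ogt they were Hcfc1 (distance 0.0171), which encodes a protein that OGT modifies and cleaves, Kdm5c (0.0183), a histone demethylase gene known to stay partly active on the inactive mouse X, and Fmr1 (0.0206). For Taf1 they were Pnma5 (0.0163), Xpnpep2 (0.0231) and Aff2 (0.0240). This distance reads absolute d-score changes, and a gene with a d-score near 0 at the start cannot fall far on it. On the ratio scale Xpnpep2 was unlike Taf1, with a log2 change at 24 h of -2.05 against -0.25, beside -0.29 for Pnma5 and -0.27 for Aff2. Med12 was nearest to Pgk1 (0.0116), the glycolytic phosphoglycerate kinase, then Gnl3l (0.0199) and Morf4l2 (0.0203). The genes most like Smc1a included Zfx (0.0281) and Kif4 (0.0299), and Stag2 was nearest to G6pdx (0.0239), Prdx4 (0.0240) and Hprt (0.0259).

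Counts of each allele on their own showed which copy moved. They are given in CPM of that allele's library. The B6 count of Smc1a was 146 and 167 before DOX and 52.5 and 58.9 after 24 h, while its Cast count was 150 and 193 before DOX and 156 and 177 after 24 h. The B6 samples of the 2 times were far apart and the Cast samples overlapped. B6 counts of Med12 were 19.3 and 12.3 before DOX and 4.48 and 4.12 after 24 h, and those of Stag2 were 39.4 and 37.3, then 11.8 and 18.4. The Cast counts of Stag2 were 36.6 and 45.4 before DOX and 46.7 and 39.5 after 24 h, so they overlapped. Those of Med12 were 15.4 and 13.6, then 13.4 and 12.0, with both 24 h samples slightly lower.

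For Ogt the B6 counts fell and the Cast counts of every later sample were above those before DOX. B6 counts were 275 and 287 before DOX and 179 and 181 after 24 h, and Cast counts were 295 and 307, then 326 and 340. Both Cast samples lay above both 0 h samples at each later time, with 359 and 335 after 8 h and 360 and 353 after 12 h. The Cast difference did not pass the test across all genes, with log2 changes of 0.20 (SE 0.0783) at 8 h and 0.24 (SE 0.0782) at 12 h and edgeR adjusted p of 1 and 0.368. For Taf1 the B6 count was 184 and 196 before DOX and 184 and 167 after 24 h, and the Cast count 278 and 334, then 339 and 330. Neither allele of Taf1 was separate from its 0 h samples at any time.

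In the fit of B6 counts, the log2 change at 24 h was -1.87 (SE 0.276) for Med12, -1.49 (SE 0.108) for Smc1a, -1.33 (SE 0.166) for Stag2 and -0.64 (SE 0.0793) for Ogt (edgeR adjusted p = 6.19e-05, 8.02e-10, 5.58e-06 and 4.75e-06). For Taf1 it was -0.11 (SE 0.0902, adjusted p = 0.79). The number of members lower was 0 at 4 h, where Smc1a alone had an unadjusted p under 0.05 and DESeq2 also called 0, then 3 after 8 h, 4 after 12 h and 4 after 24 h. The X-linked share lower was 0.548%, 45.8%, 66.3% and 75.6%, and the share of all genes 0.0166%, 1.39%, 2.17% and 2.46%. At 8 h the calls of Med12 and Ogt were each lost without single libraries. Med12 had an adjusted p of 0.201 without replicate 1 of 0 h and 0.163 without replicate 2 of 8 h. Ogt had 0.0889 without replicate 2 of 0 h, and 0.412 and 0.0653 without replicate 1 and 2 of 8 h. From 12 to 24 h edgeR called no member lower in B6 counts, while 2.19% of X-linked genes were lower. In that fit Smc1a and Stag2 had an unadjusted p under 0.05. DESeq2 called no member either, but gave no adjusted p for Med12 and Stag2. For Cast counts edgeR and DESeq2 called no member at any time, but DESeq2 gave no adjusted p for Med12, Smc1a and Stag2 at 12 h. Ogt was the only member with an unadjusted p under 0.05 in edgeR, at 8 and 12 h (0.0162 and 0.00506). In the Cast fit of all genes 0.0755% were higher and 0.101% lower at 24 h, and on the X 0.529% and 0.265%.

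**Figure D3:**
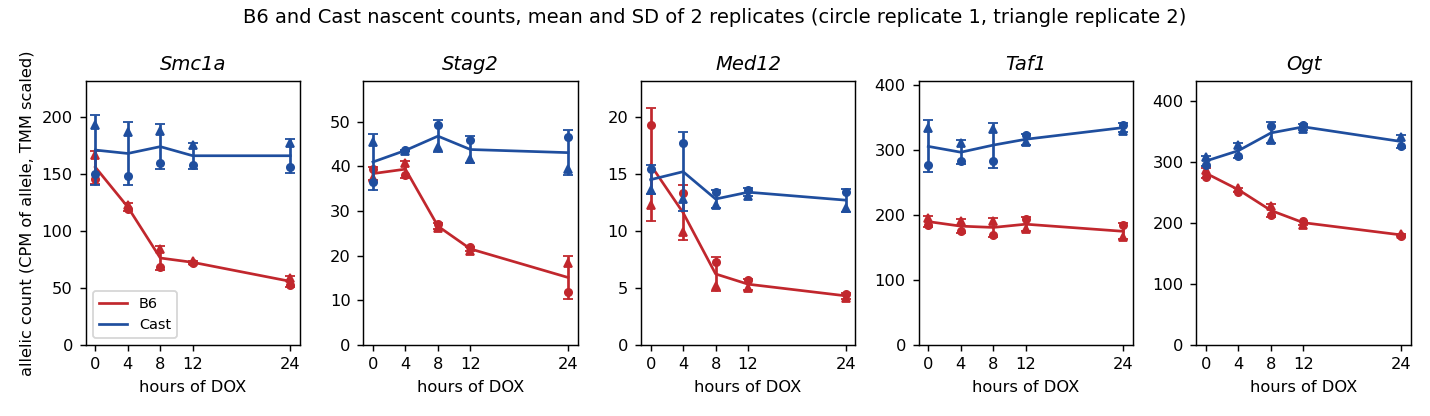
B6 (red) and Cast (blue) counts in CPM of the allele's library against hours of DOX for 5 members. Points are samples, lines the mean and bars the SD of 2 replicates. The B6 line falls for Smc1a, Stag2, Med12 and Ogt, and the Cast mean goes from 301 to 333 for Ogt, 306 to 335 for Taf1 and 14.5 to 12.7 for Med12 at 24 h, none of which passed the test.

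Total counts hold the reads of both copies and those without an allele. Total CPM of Smc1a was 191 and 219 before DOX, 148 and 166 after 8 h, 148 and 150 after 12 h and 130 and 145 after 24 h, so every sample from 8 h on lay below both 0 h samples. Its log2 change was -0.38 (SE 0.0933), -0.47 (SE 0.0934) and -0.58 (SE 0.0936) at 8, 12 and 24 h, with edgeR adjusted p of 0.24, 0.0237 and 0.0026. With the replicate number as a block, which pairs these total counts, the 8 h change passed the threshold (adjusted p = 0.000496). The 24 h call was lost without replicate 1 of 24 h (0.053).

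Stag2 had 338 and 367 CPM at 0 h, 364 and 367 after 4 h, 326 and 315 after 8 h, 284 and 268 after 12 h and 258 and 250 after 24 h. The 4 h samples overlapped with 0 h and all later ones were lower. The log2 change was -0.35 (SE 0.0703) at 12 h and -0.47 (SE 0.0705) at 24 h (edgeR adjusted p = 0.022 and 0.0013). The 12 h calls of both cohesin genes were lost without replicate 2 of 0 h (adjusted p = 0.0806 for Smc1a and 0.0535 for Stag2), without replicate 1 of 12 h (0.219 and 0.112) and without replicate 2 of 12 h (0.143 and 0.203).

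Med12 fell furthest in total count, from 32.8 and 27.2 CPM at 0 h to 21.8 and 19.1 after 8 h, 21.5 and 19.3 after 12 h and 18.3 and 15.8 after 24 h. Samples from 8 h on lay below both 0 h samples. Its log2 change at 24 h was -0.82 (SE 0.132, edgeR adjusted p = 0.00255), a fold of 0.567, and the call was lost without replicate 2 of 24 h (0.0598). At 8 and 12 h the change was -0.55 (SE 0.130) and -0.56 (SE 0.130), with edgeR adjusted p of 0.195 and 0.0596. With the replicate block it was 0.000212 and 6.52e-05. The 12 h change also passed with DESeq2 (adjusted p = 0.0207), which called 26.7% of X-linked genes lower. In edgeR without the filter on low counts it passed as well (adjusted p = 0.00573).

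Ogt and Taf1 kept most or all of their total counts. Ogt had 468 and 453 CPM at 0 h, 436 and 434 after 8 h, 450 and 416 after 12 h and 393 and 398 after 24 h, all later samples lying below both 0 h samples. Its log2 change at 24 h was -0.22 (SE 0.0682), which did not pass edgeR's test (adjusted p = 0.171) and did so with the replicate block (0.0412). Taf1 had 386 and 419 CPM at 0 h and 412 and 406 after 24 h, and overlapped with 0 h at every time. Its log2 change at 24 h was 0.02 (SE 0.0797, edgeR adjusted p = 0.967), with a 95% interval of -0.13 to 0.18.

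**Figure D4:**
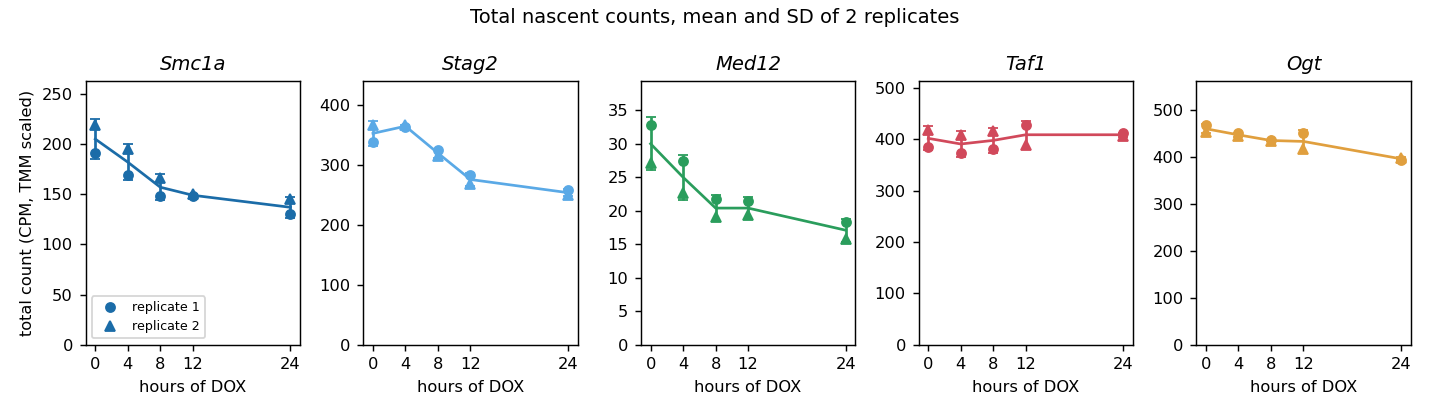
Total nascent counts in CPM of 5 members against hours of DOX, each panel from 0 with its own scale. Circles and triangles are replicates 1 and 2, lines the mean and bars the SD. Smc1a, Stag2 and Med12 end below their 0 h samples, with means going from 205 to 137 for Smc1a and 353 to 254 for Stag2, while the means of Taf1 stay between 391 and 409.

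Across the set the total count was lower for 0 of 5 members at 4 h, 0 after 8 h, 2 after 12 h and 3 after 24 h, and higher for none. At 4 h no member had an unadjusted p under 0.05 and DESeq2 called 0. At 8 h Smc1a and Med12 had one, and DESeq2 called 1, beside 9.76% of X-linked genes lower. With the replicate block 2 members were lower after 8 h, 3 after 12 h and 4 after 24 h, where the block called 20.7%, 55.4% and 61.4% of X-linked genes lower. The share of 502 X-linked genes lower was 0% after 4 h, 5.38% after 8 h, 22.5% after 12 h and 38% after 24 h, and that of all 14525 genes 0%, 0.186%, 0.854% and 1.54%. The members' median log2 change at 24 h was -0.47, beside an X-linked median of -0.50 and 0.01 over all genes. Among the 502 X-linked genes 20 had a higher change than Taf1 at 24 h, 75 than Ogt, 229 than Stag2, 293 than Smc1a and 408 than Med12.

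The proteins of these genes work in complexes whose other subunits are mostly autosomal, so the total counts of 91 partner genes were read from the same fit. At 24 h 0 of the 87 tested were higher and 1 was lower, with 5 and 2 at an unadjusted p under 0.05 and 0 and 1 called by DESeq2. Of all genes, 0.31% were higher and 1.54% lower in edgeR, and DESeq2 called 1.95% in either direction. The median log2 change was 0.03 over the 87 partners, 0.03 over the 83 autosomal ones and 0.01 over all genes. With the replicate block 2 were higher (Med12l and Tet2) and 3 lower (Hdac8, Hcfc1 and Tet3), while 5.32% of all genes were called in either direction.

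Of 15 tested cohesin partners the call fell on Hdac8, the X-linked deacetylase of SMC3. Hdac8 went from 97.0 ± 5.14 to 74.2 ± 0.597 CPM (SD, n = 2), which is -0.39 on the log2 scale (SE 0.0837, adjusted p = 0.0242 in edgeR), and its d-score from 0.510 ± 0.0266 to 0.295 ± 0.00824. The call was lost, leaving 0 partners lower, without replicate 1 of 0 h and without replicate 1 or 2 of 24 h. The highest log2 change in this list was 0.28 (SE 0.348) for Rec8, a meiotic cohesin subunit gene near 1 CPM, and the list median was 0.05. Of 30 Mediator partners, 0 were called and the median was 0.03. The extremes were Med12l, a paralogue of Med12, at 0.25 (SE 0.106, adjusted p = 0.404, and 0.0197 with the block) and Med29 at -0.18 (SE 0.145).

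Among 15 TFIID partners 0 were called, with a median of 0.05 and the highest log2 change for Taf13 at 0.24 (SE 0.141). The lowest were those of the X-linked Taf7l at -0.81 (SE 0.482) and Taf9b at -0.57 (SE 0.312), at 0.712 ± 0.222 and 1.13 ± 0.0412 CPM at 0 h, and neither passed the test (adjusted p = 0.648 and 0.593). Of 17 other general transcription factor genes 0 were called, between -0.14 for Ercc2, a TFIIH helicase, and 0.13 for Gtf2h4. Of 10 genes around O-GlcNAc 0 were called, with a median of 0.06. Tet2, a DNA demethylating enzyme and partner of OGT, was highest at 0.30 (SE 0.0913, adjusted p = 0.163, and 0.0089 with the block), and Tet3 lowest at -0.34 (SE 0.161, adjusted p = 0.487, and 0.0106 with the block). The X-linked Hcfc1 stood at -0.23 (SE 0.0703, adjusted p = 0.152, and 0.0242 with the block), while its B6 to Cast ratio fell by 0.83 on the log2 scale (SE 0.0872, adjusted p = 2.06e-14).

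At the earlier times edgeR called no partner in either direction, while 0.0138%, 0.00688% and 0.0964% of all genes were higher at 4, 8 and 12 h. The numbers with an unadjusted p under 0.05 were 0 higher and 4 lower at 4 h, 2 and 3 after 8 h and 10 and 5 after 12 h. DESeq2 called none at 4 h, Hcfc1 lower at 8 h, and Hdac8 lower and Tet2 higher at 12 h. Of all genes it called 0.0138%, 0.337% and 1.29% in either direction at these times. With the block 2 were lower at 8 h (Hcfc1 and Hdac8), and at 12 h 4 were lower (Hcfc1, Hdac8, Taf9b and Med9) and 3 higher (Tet2, Nipbl and Esco1). The block called 0.737% of all genes in either direction at 8 h and 4.94% at 12 h. Of the 4 partners not tested, Rad21l had at most 5 counts in a sample. Med7, Taf9 and Mgea5, the gene of the enzyme that removes O-GlcNAc, were at 0 and share their strand with an overlapping gene, as Med14 does.

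**Figure D5:**
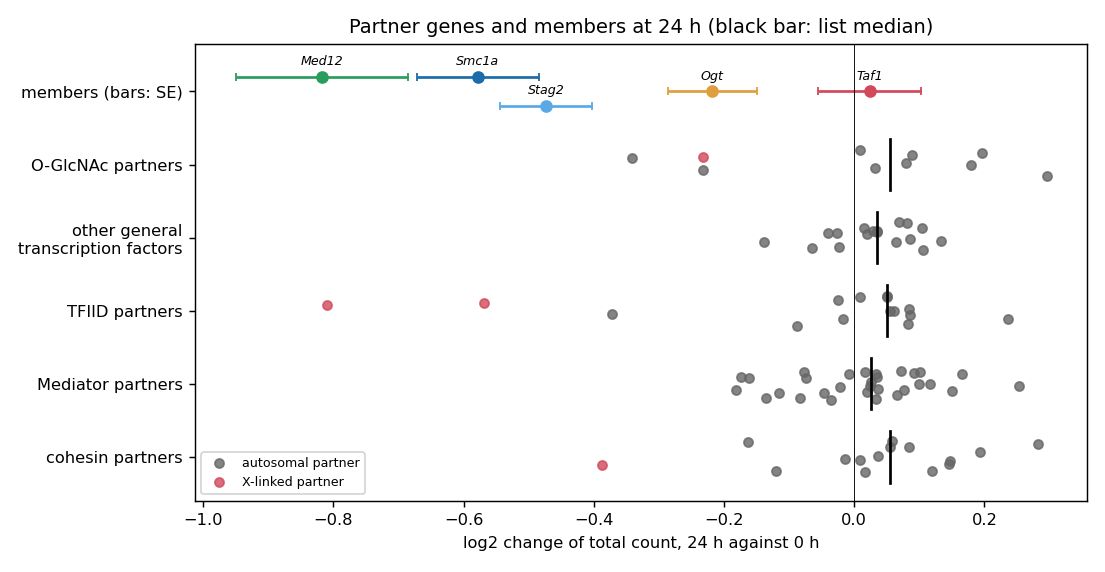
log2 change of the total count at 24 h against 0 h for 87 partner genes in 5 lists and for the 5 members (top row, bars are SE). Grey points are autosomal and red points X-linked partners, and black bars the list medians. The list medians lie between 0.03 and 0.06, and Med12, Smc1a and Stag2 lie at -0.82 to -0.47.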

How the data were processed

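TT-seq was done on 10 samples, and groups and replicate numbers came from the labels. Per the study's methods, the authors aligned reads with STAR to mm10 masked at strain differences, kept unique proper pairs with mapping quality of at least 7 and at most 2% mismatches, split alleles with SNPSplit and counted pairs by strand with featureCounts 1.5.1 over the longest refFlat span. TopHat2 2.1.0 stands in the submitters' processing notes as well. The deposited tables hold raw counts per gene (all, B6 and Cast) and a fraction, the d-score, which the authors gave for genes with at least 10 allelic reads. Removal of duplicates is not stated in the sources used here. Deposited starts were read as 0-based.

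From the counts, edgeR 4.0.16 (R 4.3.3, quasi-likelihood, filterByExpr, TMM, Benjamini-Hochberg over all tested genes, two-sided) was fitted to all 10 samples for total, B6 and Cast counts. The B6 to Cast ratio was fitted on both alleles of every sample with sample intercepts and allele-by-time terms, for genes that had 10 or more allelic reads throughout. The threshold was an adjusted p of 0.05. The SE of an edgeR change is its absolute value divided by the square root of its F statistic. The 95% intervals of these changes span 1.96 SE on each side and can be narrower than the quasi-likelihood test would give. An exact permutation test of 2 against 2 samples cannot go below 0.333, so none is given. CPM values of members and partners are TMM scaled, and those of Xist and the markers are scaled by library size only. Total counts per kb are divided by the deposited span. IC35 was read from a four-parameter log-logistic curve, each d-score divided by that of its replicate at 0 h and by 2, for X-linked genes with 0 h d-scores from 0.3 to 0.7. Wilson 95% intervals cover counting error only. The fits were also run on simulated counts with the same spread for every gene and no deviation shared by replicates. That run cannot show how the fits behave with the shared deviation seen in these data.

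Same-numbered replicates deviated together in total counts, with correlations over genes of 0.142 to 0.281 and 10 of 10 pairs above 0.1, so for total counts the block on replicate number is given where it changed a call. In the ratio no pair passed 0.1, and in B6 and in Cast counts 9 of 10 did (lowest 0.0967 and 0.0728), so the block on these stands with the alternatives only. Alternatives were DESeq2 1.42.0, RLE scaling, autosomal library sizes, no filter on low counts, a minimum of 50 allelic reads, other IC35 thresholds, linear interpolation and leaving out each sample. The members, the partner and marker lists and the tests were chosen with earlier results of these data known. Named are all members, every X-linked partner, the partners past the threshold at 24 h and otherwise the largest rise and fall per list, the 3 most alike genes and the nearest gene on each side. Of the alike genes, 1 is not reported here. Partners called only with the block, by DESeq2 or without the filter are named as well, after their values were seen.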

Additional observations from a re-analysis of the deposited data

How the results depend on the processing

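No direction of a call turned under any alternative, and RLE scaling, autosomal library sizes and a minimum of 50 allelic reads left the members' and partners' numbers of calls within 1.5 times. For the total count at 8 h, 2 members were lower without the filter on low counts, 1 with DESeq2 and 2 with the replicate block, against 0. Of X-linked genes, 9.76% were lower with DESeq2 and 20.7% with the block, against 5.38%. For the B6 to Cast ratio, same-numbered samples showed little shared deviation (correlations of 0.015 to 0.0575). There DESeq2 called 0 members lower at 4 h, 2 at 8 h and 2 after 12 h. Of X-linked genes it called 3.59%, 34.3% and 48.9% lower. It gave no adjusted p for Med12 and Stag2 at 4 h. The replicate block called 2 members lower at 4 h (14.1% of X-linked genes) and 1 from 12 to 24 h. For B6 counts the block called 1 lower at 4 h, 1 from 12 to 24 h and, with Stag2 added (adjusted p = 0.0196 in edgeR), 4 against 3 at 8 h. Of the partners, those lower were 1 with DESeq2 and 2 with the block at 8 h, 1 without the filter, 1 with DESeq2 and 4 with the block at 12 h, 3 with the block at 24 h and 1 with it from 12 to 24 h. Partners higher were 1 without the filter, 1 with DESeq2 and 3 with the block at 12 h. At 24 h they were 1 without the filter and 2 with the block. DESeq2 called 0.337% and 1.29% of all genes in either direction at 8 and 12 h. The block called 0.737%, 4.94% and 5.32% at 8, 12 and 24 h. No such share was computed without the filter, for the block on B6 counts or for the block from 12 to 24 h, so those counts have no background beside them.

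Leaving out single samples gave 0 to 3 members lower in total count at 12 h and 2 to 3 at 24 h. In the ratio it gave 0 to 1 at 4 h, 2 to 4 at 8 h and 4 to 5 at 24 h, and in B6 counts 1 to 3 at 8 h. The partners numbered 0 to 3 higher at 12 h, the 3 of them without replicate 2 of 0 h and 1 without replicate 2 of 12 h, and 0 to 1 lower at 24 h. Such a fit leaves a time with 1 sample, which is assumed to vary like the others. No share over all genes was computed for these fits, and the cause of these shifts was not tested.

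IC35 moved with its threshold. At 0.30 it was 11.7 h for Smc1a, 16.4 h for Stag2 and 9.41 h for Med12, and at 0.40 it was 5.18, 7.69 and 4.75 h. For Stag2 linear interpolation gave 11.4 h and a curve scaled to the mean 0 h d-score, with no replicate block, 10.3 h. Single replicates gave 6.70 to 7.74 h for Smc1a, 8.75 h for Stag2 and 5.84 to 6.67 h for Med12.

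Med12 had at most 183 allelic reads in a sample and Stag2 477, and the SE of their ratio changes at 4 h was 0.256 and 0.163 beside 0.0845 for Smc1a.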
